A study of Mus musculus with 12 samples.

Results

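Cytochrome P450 (Cyp) and UDP-glucuronosyltransferase (Ugt) genes were followed in mouse pancreatic tissue and organoids. A gene was a member if a probe set of the array carried its symbol alone and the symbol was a Cyp family number followed by a letter, or Ugt followed by a number. Cyp51, the sterol demethylase, lies outside this pattern. Of 18194 genes measured, 83 were members, 72 of them Cyp and 11 Ugt genes. A gene with several probe sets was represented by the brightest of them (mean of the 12 arrays), and the level of a gene is its deposited log2 value from robust multi-array averaging (RMA). Each of 3 groups had 4 Affymetrix arrays, lettered A to D and called biological replicas in the labels. yDucts were ductal organoids derived from acini of adult R26-rtTA; tetO-YAP S127A mice, in which doxycycline had switched on an activated form of YAP, the effector of the Hippo pathway. They were then passaged without doxycycline, and rtTA came from the Rosa26 locus, which is active in most cell types. Ducts were organoids grown from native duct fragments. Both organoids were kept in Matrigel with the same medium, which held B27, N-acetylcysteine, gastrin, EGF, Noggin, FGF10, nicotinamide and R-spondin1. Acini were freshly isolated exocrine tissue that had not been cultured, so that culture and cell type cannot be told apart in any comparison with Acini. The genotype of the mice behind Ducts and Acini, and whether arrays of a group came from different animals, could not be learned from the labels or the study's methods. The p-values therefore measure the spread between arrays, part of which may be technical.

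P450 enzymes are haem proteins, most of them in the endoplasmic reticulum, that insert an oxygen atom into lipophilic substrates with electrons handed on by partner proteins. Families 1 to 4 include the enzymes that oxidise drugs, pollutants and fatty acids, while higher numbered families make or break down steroids, bile acids, vitamin D and retinoic acid. Glucuronosyltransferases attach glucuronic acid to such products, which are then exported. Both groups are best known from liver, and several members are also used by epithelia of gut, lung and kidney.

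The arrays differed in ways that touch every comparison with Acini. The 30th percentile of the level, used here as the limit for a dim probe set, was 3.20 ± 0.01 on yDucts, 3.21 ± 0.02 on Ducts and 3.72 ± 0.06 on Acini arrays (SD, n = 4 each). The interquartile range was 3.95 ± 0.02, 3.89 ± 0.03 and 2.64 ± 0.13 in the same order. The Gapdh control probe sets read -0.15 ± 0.02 (3′ minus 5′ end, log2) in yDucts, -0.04 ± 0.04 in Ducts and 1.53 ± 0.29 in Acini. The part of these differences in the members' values was not tested. Where the mean of a group lay below the 30th percentile, the fold was taken against the percentile or the gene's own value, whichever was higher on each array, and is written as "at least". Of 7 duct markers checked against the labels, 4 were higher and 1, Muc1, lower in yDucts than in Acini, and 4 were higher and 0 lower in Ducts. Of all tested genes, 43.6% were higher and 32.6% lower in yDucts, and 42.7% and 33.1% in Ducts, so these counts alone are a weak check. Krt19 and Krt7, duct keratins, read 12.30 and 11.98 in yDucts, 12.38 and 12.81 in Ducts and 7.63 and 5.70 in Acini. Cpa1, an acinar protease, read 3.30 in yDucts, 3.28 in Ducts and 14.59 in Acini.

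In yDucts 42 of the 83 had a mean above the 30th percentile, against 39 in Ducts and 54 in Acini, and 25 members lay below it in all groups. A mean above 8 was reached by 6 members in yDucts, 4 in Ducts and 0 in Acini. In all, 51 members lay above the percentile on at least 4 arrays and were tested, and Cyp1a1, Cyp2g1 and Cyp7b1 passed through the Acini arrays alone. The other 32 had a highest group mean of 4.46 and are only listed here by number, 31 of them with the highest mean in Acini. The lower calls and kept calls counted below include Cyp1a1, Cyp2g1 and Cyp7b1, which were tested only through the group where they were high. Other members also needed the group where they were high to reach 4 arrays, among them Ugt2b5 and Cyp2d26 through yDucts. The higher calls and kept calls counted below include Ugt2b5 and Cyp2d26.

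**Figure D1:**
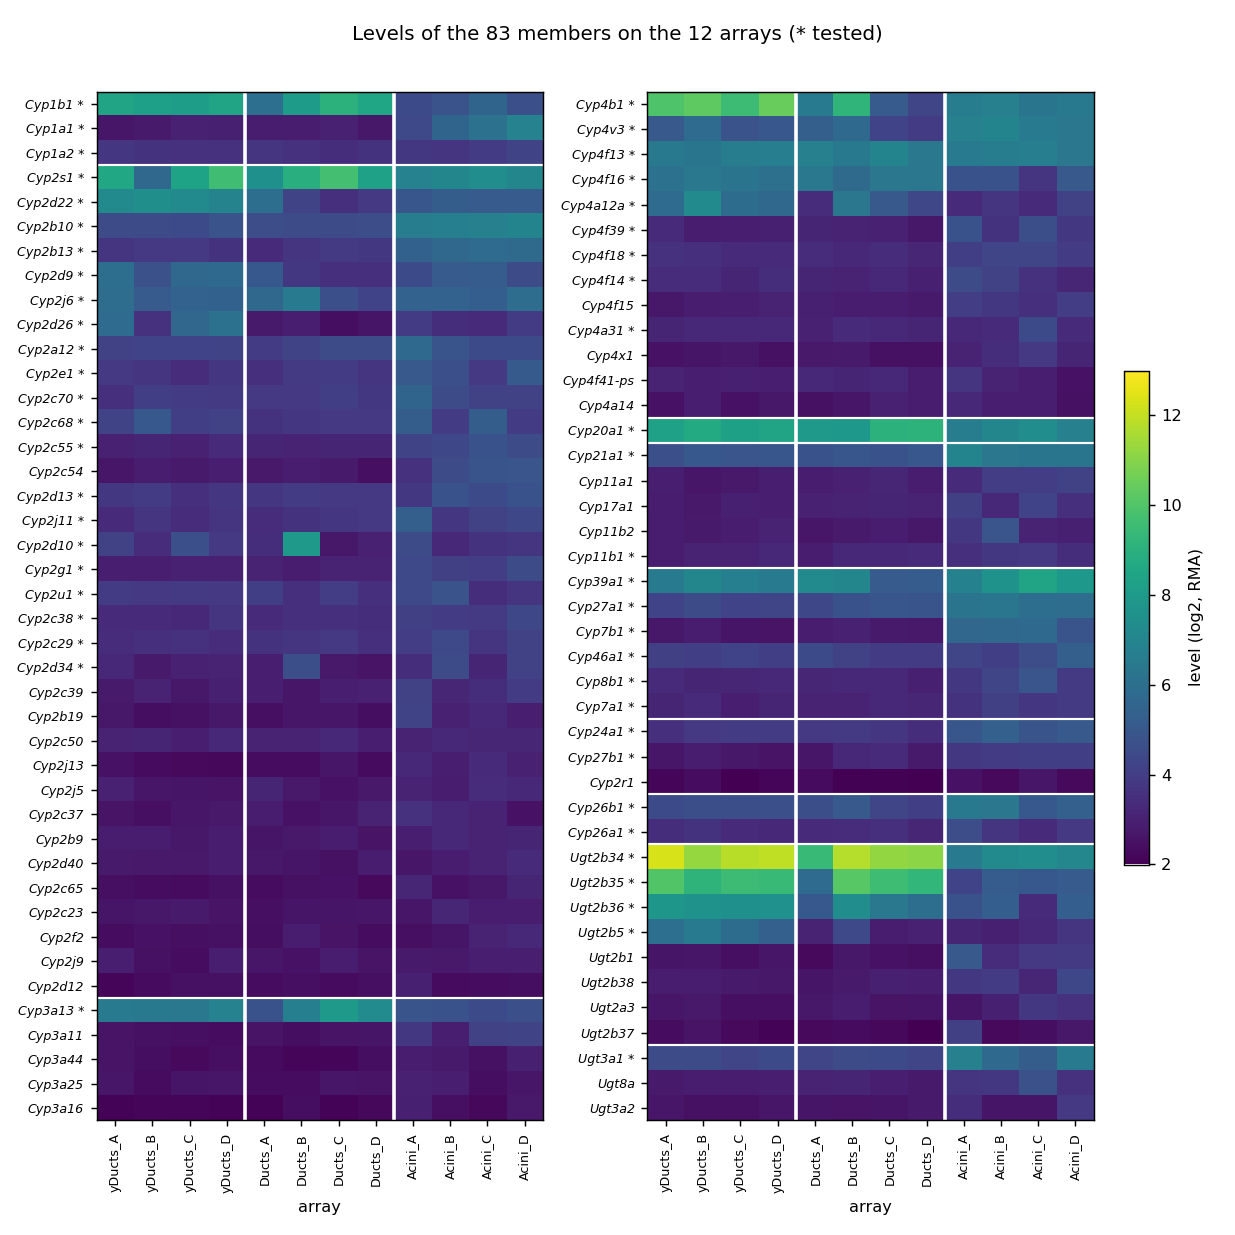
Level (log2, RMA) of each of the 83 members, 1 row per gene grouped by enzyme class, on the 12 arrays (columns, 4 per group); colour runs from level 2 (dark) to 13 (bright) and tested genes carry a star. The bright rows are few, with Ugt2b34, Ugt2b35, Cyp1b1, Cyp2s1 and Cyp20a1 bright on most arrays of both organoids, Cyp4b1 bright on all 4 yDucts arrays, and most other rows dark throughout.

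Compared with Acini, 12 of the 51 tested members were higher in yDucts, where 43.6% of all 14991 tested genes were higher, and 25 were lower, where 32.6% of all genes were lower. In Ducts 7 members were higher and 29 were lower than in Acini, against 42.7% and 33.1% of all genes. The members' median difference was -0.60 in yDucts and -0.68 in Ducts (log2, organoid minus Acini), while the median of all tested genes was 0.24 and 0.21. Both organoid groups were set against the same Acini arrays. Of the lower calls, 13 of the 25 in yDucts and 16 of the 29 in Ducts had Acini levels under the median of those arrays. The count of lower members, and how it stood to all genes, depended on scaling. After cyclic loess between the arrays 12 of 50 tested members were higher and 15 lower in yDucts, against 27.1% and 36.0% of all genes, and the median difference was -0.11 for members and -0.15 for all genes. In Ducts cyclic loess gave 5 higher and 16 lower members (32.0%, against 36.6% of all genes lower). Quantile normalization gave 7 and 18 (35.3% against 36.1% lower), and median centring 9 and 20 (39.2% against 26.8% lower). In yDucts quantile normalization gave 11 and 17 (33.3% against 35.9% lower), and median centring 13 and 22 (43.1% against 26.3% lower). The share of lower calls thus lay above that of all genes as deposited and after median centring in both organoids, and not after quantile normalization or cyclic loess. Of the calls above, 11 of 12 higher and 13 of 25 lower calls in yDucts, and 5 of 7 and 14 of 29 in Ducts, were kept under all 3 rescalings.

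**Figure D2:**
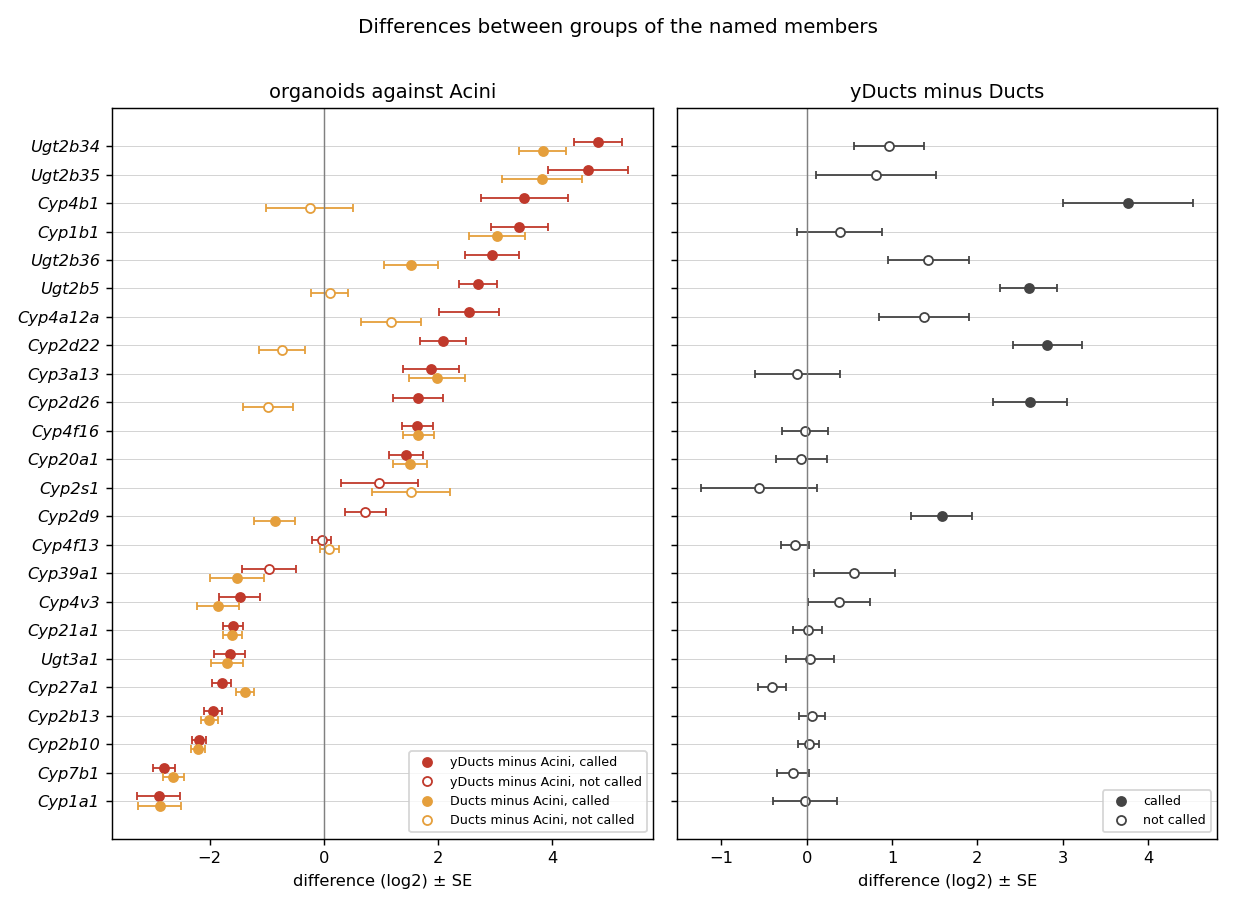
Differences between groups (log2 ± SE of the limma model, n = 4 arrays per group) for the 24 named members, ordered by yDucts minus Acini; the left panel shows both organoids against Acini and the right panel yDucts minus Ducts, with filled points called at an adjusted p under 0.05. Ugt2b34, Ugt2b35 and Cyp1b1 lie far right and Cyp1a1 and Cyp7b1 far left in both organoids, while Cyp4b1, Cyp2d22, Cyp2d26, Cyp2d9 and Ugt2b5 are the 5 filled points on the right.

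All 4 tested Ugt2b genes, which glucuronidate steroids, bile acids and drugs, were higher in yDucts than in Acini and 3 of them were higher in Ducts, and Ugt2b34 and Ugt2b35 had the largest differences of all members in both. Ugt2b34 read 12.33, 11.28, 11.83 and 11.95 on yDucts arrays A to D, 9.45, 11.78, 11.22 and 11.08 on Ducts arrays and 6.47, 7.23, 7.40 and 7.11 on Acini arrays. Every organoid array lay above every Acini array, and Ducts A was the lowest organoid array. Ugt2b34 was 27.8-fold higher in yDucts than in Acini (difference 4.80 ± 0.41, SE, adjusted p = 4.47e-07 by limma) and 14.2-fold higher in Ducts (3.83 ± 0.41, adjusted p = 3.18e-06). Its second probe set was higher by 5.88 in yDucts and 4.86 in Ducts. Ugt2b35 read 10, 9.16, 9.54 and 9.42 in yDucts, 5.86, 10.16, 9.57 and 9.27 in Ducts and 4.23, 5.19, 5.05 and 5.14 in Acini. Here too every organoid array lay above every Acini array, but Ducts A came close to the Acini arrays. The difference was 4.63 ± 0.70 in yDucts (adjusted p = 5.96e-05) and 3.81 ± 0.70 in Ducts (adjusted p = 0.000299).

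Ugt2b36 read 7.81, 7.61, 7.52 and 7.56 in yDucts, 5.04, 7.39, 6.40 and 5.97 in Ducts and 4.77, 5.29, 3.37 and 5.30 in Acini. yDucts were tight and above all Acini arrays, whereas Ducts A fell among the Acini values. The increase was 2.94 ± 0.47 in yDucts (adjusted p = 9.62e-05) and 1.52 ± 0.47 in Ducts (adjusted p = 0.0107), and that in Ducts was not called after cyclic loess (0.85, adjusted p = 0.154). Ugt2b5 read 6.0, 6.53, 5.88 and 5.39 in yDucts, 3.11, 4.42, 2.85 and 3.02 in Ducts and 3.15, 2.98, 3.21 and 3.66 in Acini. It was above background in yDucts, at least 4.69-fold higher than in Acini (2.70 ± 0.33). In Ducts and Acini it was near or below the 30th percentile, and these were not called apart (0.10 ± 0.33, adjusted p = 0.791 by limma). Ugt2b5 lay above the percentile on 5 arrays and was tested only because of yDucts. Its yDucts differences are therefore a description, and their p is not given. The other Ugt2 members, Ugt2b1, Ugt2b37, Ugt2b38 and Ugt2a3, had means of 2.34 to 2.80 in yDucts and 2.21 to 2.83 in Ducts, below the 30th percentile in both, and were not tested. Their Acini means were 4.04, 2.87, 3.815 and 3.245, each above the means in both organoids. Those of Ugt2b1 and Ugt2b38 lay above the 30th percentile of the Acini arrays (3.72).

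**Figure D3:**
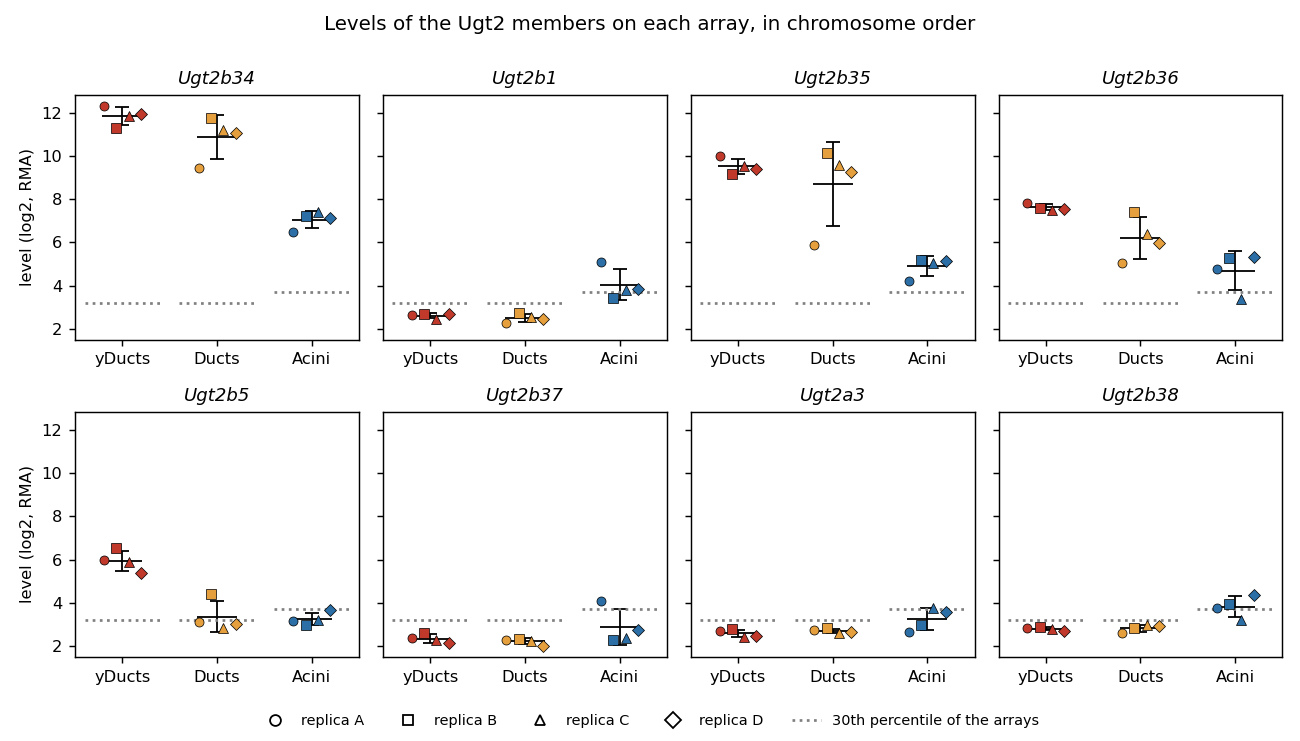
Level (log2, RMA) of the 8 Ugt2 members on each array, 1 panel per gene in their order along chromosome 5; points are the replicas A to D, bars the mean ± SD of 4 arrays and dotted lines the 30th percentile of the arrays. Ugt2b34, Ugt2b35 and Ugt2b36 stand high in yDucts, Ugt2b5 at 5.95 in yDucts but 3.35 in Ducts, and Ugt2b1, which lies between Ugt2b34 and Ugt2b35, stays below the dotted line in both organoids.

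All 8 Ugt2 members lie on chromosome 5, in the order Ugt2b34, Ugt2b1, Ugt2b35, Ugt2b36, Ugt2b5, Ugt2b37, Ugt2a3 and Ugt2b38 (RefSeq, GRCm38.p6). Stretches of their promoters are shown because genes at background carried nearly the same bases as Ugt2b5. Of the 83 members, 61 had a RefSeq promoter window, and only its 250 bases before the transcription start were read. A 13-letter element, GTTANANTTTAAC, chosen after the sequences had been seen and searched on both strands, was found in 6 members and in 0.0304% of all windows (10 of 32851). The stretches of 60 bases around it are at chr5:86906961-86907020 for Ugt2b34 (minus strand), chr5:87000780-87000839 for Ugt2b35 (plus strand), chr5:87092570-87092629 for Ugt2b36 (minus strand), chr5:87140352-87140411 for Ugt2b5 (minus strand), chr5:87254817-87254876 for Ugt2b37 (minus strand) and chr5:87424218-87424277 for Ugt2b38 (minus strand), with the element in capitals.
Ugt2b34: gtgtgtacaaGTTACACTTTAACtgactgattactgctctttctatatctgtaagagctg
Ugt2b35: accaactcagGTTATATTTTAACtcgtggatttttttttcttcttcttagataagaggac
Ugt2b36: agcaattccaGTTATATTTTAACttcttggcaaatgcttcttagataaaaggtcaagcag
Ugt2b5: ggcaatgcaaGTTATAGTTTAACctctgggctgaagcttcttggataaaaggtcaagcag
Ugt2b37: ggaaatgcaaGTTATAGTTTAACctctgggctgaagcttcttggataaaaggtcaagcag
Ugt2b38: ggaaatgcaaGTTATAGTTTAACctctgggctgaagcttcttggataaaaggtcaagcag

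The element begins 73, 70, 64, 61, 78 and 64 bases before the start in these genes. Ugt2b37 and Ugt2b38 were identical over the 60 bases, and Ugt2b5 differed from each of them at a single base (59 of 60 identical), although Ugt2b5 read 5.95 in yDucts while Ugt2b37 and Ugt2b38 read 2.34 and 2.80. Ugt2b36 matched Ugt2b5 at 50 and Ugt2b34 matched it at 31 of 60 bases. The element was therefore present in members that were high in both organoids, in yDucts alone and in neither. It was not found in Ugt2b1 and Ugt2a3.

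Of the family 1 enzymes, which oxidise polycyclic aromatic hydrocarbons, Cyp1b1 was higher in both organoids than in Acini and Cyp1a1 read lower in both. Cyp1b1, which also hydroxylates oestradiol, read 8.41, 8.21, 8.15 and 8.43 in yDucts, 6.02, 8.08, 9.05 and 8.50 in Ducts and 4.45, 4.82, 5.56 and 4.70 in Acini. Every organoid array was above every Acini array. Cyp1b1 was 10.7-fold higher in yDucts (3.42 ± 0.50, adjusted p = 4.11e-05) and 8.17-fold higher in Ducts (3.03 ± 0.50, adjusted p = 0.000115). A second probe set of Cyp1b1 was higher by 3.08 and 2.77, and the remaining one was lower by 0.87 and 0.90 in the same comparisons (means 3.61 in yDucts, 3.58 in Ducts and 4.49 in Acini).

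Cyp1a1 read 2.66, 2.79, 3.01 and 2.95 in yDucts, 2.86, 2.86, 3.03 and 2.73 in Ducts and 4.42, 5.55, 6.16 and 6.86 in Acini. All organoid arrays were below the 30th percentile, and the Acini arrays spread over more than 2 log2 units. It read at least 5.87-fold lower in yDucts and at least 5.81-fold lower in Ducts than in Acini. As Cyp1a1 entered the test only through its Acini arrays, these values are a description and its p is not given. Cyp1a2, the caffeine oxidising enzyme of liver, had means of 3.61, 3.56 and 3.91 in yDucts, Ducts and Acini and was called lower in Ducts (-0.35 ± 0.14, adjusted p = 0.0425) but not in yDucts (adjusted p = 0.0759). The difference in Ducts changed sign in a rescaling, and the Acini mean lay below the median of those arrays (4.59).

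Both Cyp1a1 and Cyp1b1 are known targets of the aryl hydrocarbon receptor, whose gene Ahr was itself measured. Ahr read 10.87, 10.16, 10.94 and 10.48 in yDucts, 10.86, 10.82, 8.78 and 8.58 in Ducts and 4.65, 6.0, 6.33 and 5.39 in Acini. It was 32.4-fold higher in yDucts and 18.0-fold higher in Ducts than in Acini (adjusted p = 2.29e-06 and 1.21e-05). The receptor's core letters GCGTG, searched on both strands of the 250 bases, were in 28.2% of all windows and in 13 of the 61 members with a window. One match each lay before Cyp1b1 (chr17:79715073-79715182, minus strand) and Cyp1a1 (chr9:57697514-57697612, plus strand), printed with the core or its reverse complement in capitals since the genes read in opposite directions.
Cyp1b1: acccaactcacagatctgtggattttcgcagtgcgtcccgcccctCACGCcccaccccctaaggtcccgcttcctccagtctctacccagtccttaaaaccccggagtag
Cyp1a1: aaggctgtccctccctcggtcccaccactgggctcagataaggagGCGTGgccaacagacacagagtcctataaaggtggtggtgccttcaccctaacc

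The match lay 76 bases before the start of Cyp1b1 and 54 before that of Cyp1a1. It was also found before Cyp20a1 and Cyp4f16, which were higher in the organoids, and before Cyp2b10 and Cyp4v3, which were lower.

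The other members higher in both organoids were Cyp3a13, Cyp20a1 and Cyp4f16. Cyp3a13, of the family that oxidises many drugs and steroids, read 6.59, 6.46, 6.40 and 6.86 in yDucts, 4.75, 6.74, 7.95 and 7.30 in Ducts and 4.86, 4.78, 4.48 and 4.69 in Acini. Ducts A lay within the Acini range and the other organoid arrays above it. The increase was 1.88 ± 0.49 in yDucts (adjusted p = 0.00393) and 1.98 ± 0.49 in Ducts (adjusted p = 0.00276). Cyp20a1, a P450 with no settled substrate, was higher by 1.44 ± 0.30 in yDucts (adjusted p = 0.000706) and 1.51 ± 0.30 in Ducts (adjusted p = 0.000517). It was not called after quantile normalization (0.54 and 0.61) or cyclic loess (0.37 and 0.43). Its other probe sets were higher by 3.32 and 3.13, and by 0.47 and 0.46. Cyp4f16, of a fatty acid hydroxylase subfamily, was higher by 1.64 ± 0.27 and 1.66 ± 0.27 (adjusted p = 0.000107 and 9.85e-05), but its second probe set differed by 0.02 and -0.16.

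Between the organoids 5 of 51 members were higher in yDucts than in Ducts, where 2.15% of all tested genes were, and 0 were lower, where 0.987% were. The 5 include Ugt2b5 and Cyp2d26, which were tested only because of yDucts. At an unadjusted p under 0.05, 8 members were higher and 1 was lower in yDucts by limma. The share of all genes at that threshold was not counted, so these counts have nothing to be set against. Cyp4b1, a P450 of lung and bladder epithelium that activates furan toxins, read 9.97, 10.26, 9.53 and 10.45 in yDucts, 6.56, 9.18, 5.14 and 4.28 in Ducts and 6.65, 6.80, 6.29 and 6.43 in Acini. All yDucts arrays were above all Ducts arrays, but Ducts B (9.18) came close to the lowest of them (9.53). Cyp4b1 was 13.6-fold higher in yDucts than in Ducts (3.76 ± 0.76, adjusted p = 0.0161) and 11.4-fold higher than in Acini (3.51 ± 0.76, adjusted p = 0.00102). In Ducts it differed from Acini by -0.25 ± 0.76 (adjusted p = 0.772).

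Of the Cyp2d genes, relatives of the human drug oxidising enzyme CYP2D6, 3 were higher in yDucts than in Ducts. Cyp2d22 read 7.24, 7.47, 7.20 and 6.94 in yDucts, 5.98, 4.27, 3.52 and 3.81 in Ducts and 4.95, 5.26, 5.17 and 5.15 in Acini. yDucts were above all other arrays, and Ducts A was the highest Ducts array. The difference between the organoids was 2.82 ± 0.40 (7.05-fold, adjusted p = 0.00179), and the second probe set gave 2.94. Cyp2d26 read 5.85, 3.58, 5.63 and 6.16 in yDucts, 2.80, 2.94, 2.40 and 2.62 in Ducts and 3.96, 3.46, 3.32 and 3.91 in Acini. yDucts B lay among the Acini values and 2 log2 units below the other yDucts arrays. Cyp2d26 was at least 4.27-fold higher in yDucts than in Ducts (2.62 ± 0.44, adjusted p = 0.00527) and at least 2.83-fold higher than in Acini (1.64 ± 0.44, adjusted p = 0.00418). Without yDucts B the differences of Cyp2d26 were 3.19 and 2.22.

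Cyp2d9, a testosterone hydroxylase of male mouse liver, read 5.97, 4.72, 5.72 and 5.78 in yDucts, 5.02, 3.80, 3.50 and 3.53 in Ducts and 4.46, 5.15, 5.18 and 4.51 in Acini. yDucts B and Ducts A overlapped. It was 3.0-fold higher in yDucts than in Ducts (1.59 ± 0.36, adjusted p = 0.0301), not called in yDucts against Acini (0.72 ± 0.36, adjusted p = 0.0817) and called lower in Ducts than in Acini (-0.86 ± 0.36, adjusted p = 0.0425). The call in Ducts against Acini was lost under all 3 rescalings (adjusted p = 0.101, 0.110 and 0.113) and that between the organoids after quantile normalization (adjusted p = 0.0719). Cyp2d10, the member nearest to Cyp2d22 on chromosome 15, read 7.94 in Ducts B and 2.71 to 3.42 on the other Ducts arrays, against 3.41 to 4.67 in yDucts and 3.21 to 4.50 in Acini, and was not called in any comparison. Cyp2d34, which was also tested, was not called in any comparison. Cyp2d13 was called lower in both organoids than in Acini, but these calls were not kept under all 3 rescalings. Its second probe set differed by -0.085 in yDucts and -0.13 in Ducts. Cyp2d12 and Cyp2d40 were at background.

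Ugt2b5, described above and tested only because of yDucts, was 6.06-fold higher in yDucts than in Ducts (2.60 ± 0.33). As 3 of the 4 Ducts arrays lay below the 30th percentile, the fold against the percentile is at least 5.42. For its neighbours the difference between the organoids was not called, and the 95% confidence interval was 0.07 to 1.86 for Ugt2b34, -0.71 to 2.34 for Ugt2b35 and 0.40 to 2.45 for Ugt2b36 (log2). The interval of Cyp1b1 was -0.69 to 1.46. Cyp4a12a, a fatty acid hydroxylase of male mouse kidney that acts on arachidonic acid, read 5.85, 7.27, 5.88 and 5.67 in yDucts, 3.39, 6.35, 5.06 and 4.36 in Ducts and 3.35, 3.65, 3.33 and 4.16 in Acini. Its Acini mean (3.62) was below the 30th percentile. Cyp4a12a was at least 5.07-fold higher in yDucts than in Acini (adjusted p = 0.000720) and was not called in Ducts (adjusted p = 0.0589), and the organoids differed by 1.38 ± 0.53 (adjusted p = 0.233).

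The Ducts arrays set much of this comparison. Without Ducts A and B, 10 members (19.6%) were higher and 1, Cyp3a13, was lower in yDucts than in Ducts, and over all genes 8.62% were higher and 5.92% lower. Without Ducts C and D only Cyp2d22 and Ugt2b5 were called (3.92%, against 1.06% of all genes higher). Leaving out Ducts C, yDucts A or yDucts D left 3 calls (5.88%), against 1.17%, 1.09% and 1.37% of all genes higher. The call of Cyp4b1 was lost without each of these arrays (adjusted p = 0.0598, 0.0540 and 0.0538 by limma).

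**Figure D4:**
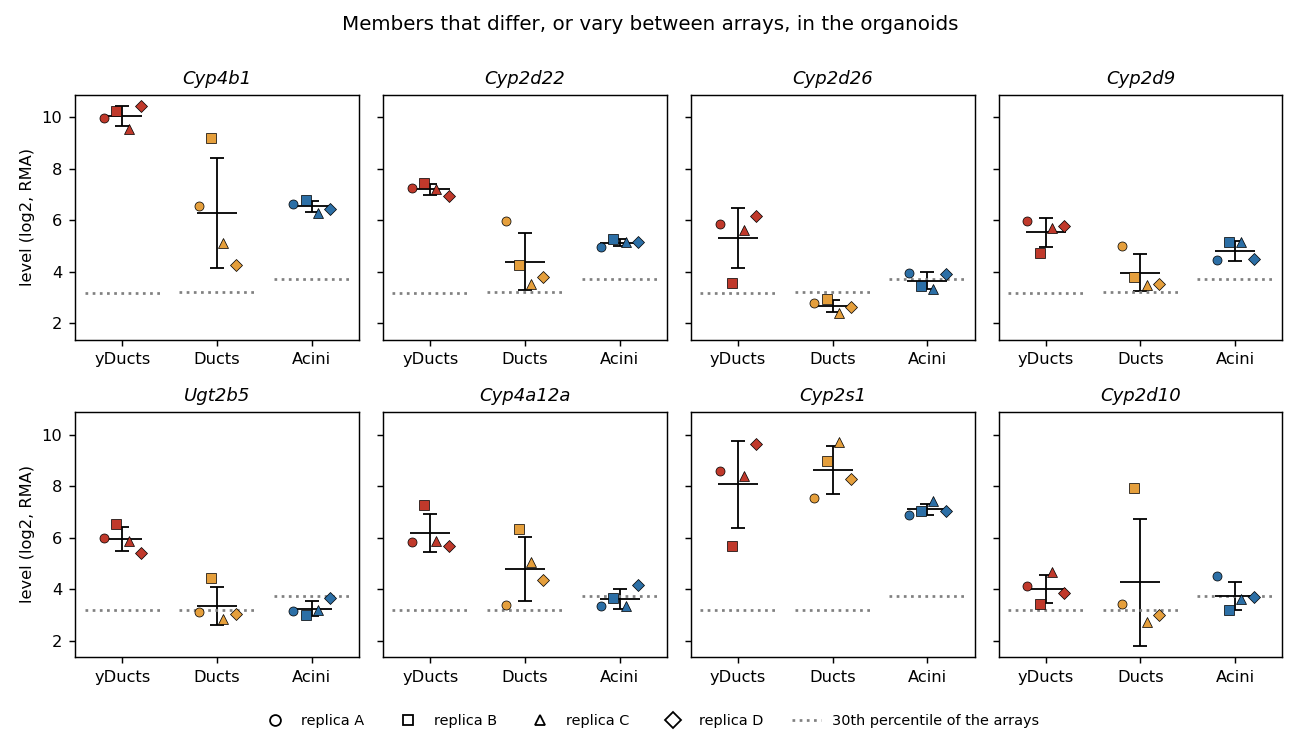
Level (log2, RMA) on each array of 8 members that differed between yDucts and Ducts or varied within them; points are the replicas A to D, bars the mean ± SD of 4 arrays and dotted lines the 30th percentile of the arrays. Cyp4b1 and Cyp2d22 are tight in yDucts and spread in Ducts, yDucts B is low for Cyp2d26 (3.58) and Cyp2s1 (5.66), and Ducts B is high for Cyp4b1 (9.18) and Cyp2d10 (7.94).

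Among the members lower in the organoids, Cyp2b10 and Cyp2b13 belong to the subfamily that phenobarbital induces in liver. Cyp2b10 read 4.57, 4.52, 4.49 and 4.83 in yDucts, 4.60, 4.57, 4.55 and 4.60 in Ducts and 6.66, 6.73, 6.80 and 6.96 in Acini. The groups were tight, and every Acini array lay above every organoid array. It was 4.55-fold lower in yDucts (-2.19 ± 0.13, adjusted p = 1.52e-08) and 4.62-fold lower in Ducts (-2.21 ± 0.13, adjusted p = 1.44e-08). Cyp2b13 was lower by 1.95 ± 0.15 and 2.01 ± 0.15 in the same comparisons (3.73 in yDucts and 3.67 in Ducts, against 5.68 in Acini).

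Of the 6 enzymes of cholesterol and bile acid metabolism, 4 were called lower in yDucts and 5 in Ducts, where 32.6% and 33.1% of all genes were. These counts include Cyp7b1, which entered the test only through its Acini arrays. Under all 3 rescalings the calls of Cyp27a1 were kept in both organoids and that of Cyp39a1 in Ducts. Those of Cyp7a1 and Cyp8b1 were lost in at least 1. Cyp7b1, which hydroxylates oxysterols, read 2.72, 2.84, 2.61 and 2.57 in yDucts, 2.82, 3.01, 2.80 and 2.75 in Ducts and 5.61, 5.72, 5.74 and 4.85 in Acini. It was below the 30th percentile in both organoids, reading at least 4.87-fold lower in yDucts and at least 4.82-fold lower in Ducts. Cyp7b1 too was tested only through its Acini arrays, so that no p is given. Cyp27a1, the mitochondrial sterol hydroxylase, was lower by 1.79 ± 0.16 in yDucts and 1.38 ± 0.16 in Ducts (4.33 and 4.74, against 6.12 in Acini). Cyp39a1, another oxysterol hydroxylase, read 6.56, 7.06, 6.74 and 6.51 in yDucts, 7.23, 7.05, 5.15 and 5.21 in Ducts and 6.83, 7.59, 8.44 and 7.86 in Acini. Ducts C and D were below every other array, and the call in Ducts (-1.52 ± 0.47, adjusted p = 0.0106) was lost without them (-0.54, adjusted p = 0.187). As deposited, yDucts missed the threshold (-0.96 ± 0.47, adjusted p = 0.0795). Cyp39a1 was called lower in yDucts after quantile normalization (-1.80, adjusted p = 0.00246 by limma) and cyclic loess (-1.85, adjusted p = 0.00395). After median centring it was not (-0.745, adjusted p = 0.169). Cyp7a1, the rate-limiting enzyme of bile acid synthesis, and Cyp8b1, which shapes the bile acid mixture, were called lower but had Acini means of 3.82 and 4.21, below the median of those arrays.

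Of the steroid and vitamin enzymes, Cyp21a1, the adrenal steroid hydroxylase, read 4.67, 5.01, 4.88 and 4.95 in yDucts, 4.77, 4.93, 4.77 and 4.99 in Ducts and 6.96, 6.38, 6.26 and 6.28 in Acini. The difference was -1.59 ± 0.17 in yDucts and -1.61 ± 0.17 in Ducts (adjusted p = 2.59e-06 and 2.49e-06). Cyp24a1, which degrades vitamin D, was lower by 1.29 and 1.35, and Cyp27b1, which activates it and was below the 30th percentile in both organoids, was at least 1.70-fold and 1.65-fold lower. Cyp26b1, which clears retinoic acid, was lower by 1.19 and 1.29. Cyp4v3, a fatty acid hydroxylase, was lower by 1.48 ± 0.36 and 1.86 ± 0.36, and Ugt3a1, which uses a sugar other than glucuronic acid in humans, by 1.65 ± 0.28 and 1.69 ± 0.28. The 17 further members called lower in yDucts, those of the vitamin enzymes included, differed by -1.35 to -0.55 with Acini means of 3.63 to 5.80.

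Some members passed no test although they were well above background. Cyp2s1, a P450 of epithelia outside the liver, read 8.57, 5.66, 8.39 and 9.64 in yDucts, 7.54, 8.96, 9.70 and 8.28 in Ducts and 6.89, 7.04, 7.41 and 7.04 in Acini. All Ducts arrays were above all Acini arrays, yet the difference was not called (1.53 ± 0.68, adjusted p = 0.0555), nor was that of yDucts (0.97 ± 0.68, adjusted p = 0.205). Without yDucts B, Cyp2s1 was called higher in Ducts (adjusted p = 0.00506 by limma) and in yDucts (1.77, adjusted p = 0.00341). It was also called in Ducts after median centring (adjusted p = 0.0328) and with only Ducts and Acini fitted (0.00648). Quantile normalization and cyclic loess gave no call in Ducts (0.418 and 0.579). Cyp4f13 had means of 6.52 in yDucts, 6.66 in Ducts and 6.56 in Acini, with confidence intervals of -0.40 to 0.31 and -0.26 to 0.45 for the organoids against Acini. This depended on scaling. Cyp4f13 was called lower in yDucts and Ducts after cyclic loess (-0.86 and -0.73, adjusted p = 0.000375 and 0.00133 by limma). The same held after quantile normalization (-0.85 and -0.69, adjusted p = 0.000443 and 0.00188), but not after median centring (0.175 and 0.30).

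The genes that supply these enzymes were counted from lists. For the list counts against Acini here and below, 43.6% of all tested genes were higher and 32.6% lower in yDucts. In Ducts these shares were 42.7% and 33.1%. Of 6 genes for UDP-glucuronic acid supply and hydrolysis, 5 were higher and 1 lower in yDucts than in Acini, and 4 and 1 in Ducts. The list's median difference was 1.83 and 1.57. Ugdh, which makes UDP-glucuronic acid, read 10.62, 10.04, 10.17 and 10.19 in yDucts, 9.24, 10.89, 11.36 and 11.41 in Ducts and 7.76, 7.76, 8.02 and 7.65 in Acini, with every organoid array above every Acini array. It was 5.49-fold and 7.61-fold higher in yDucts and Ducts (adjusted p = 6.87e-05 and 1.55e-05). Uxs1, which converts UDP-glucuronic acid to UDP-xylose, was higher by 2.86 and 2.71, and Slc35d1, a transporter of UDP-glucuronic acid, by 2.30 and 1.82. Slc35b1, a nucleotide carrier of the endoplasmic reticulum, was lower by 1.46 in yDucts. Of 16 genes for electron transfer and haem supply, 8 were higher and 2 lower in yDucts, and 8 and 3 in Ducts. Pgrmc1, a haem-binding partner of P450 enzymes, was higher by 2.32 and 2.13, and Cyb5r1, a cytochrome b5 reductase, by 3.19 and 3.97. Cyb5a, which hands electrons to P450 enzymes, was higher by 1.45 and 1.89, and its call in yDucts was lost after quantile normalization (0.66) and cyclic loess (0.38).

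Regulators, other enzymes and transporters moved both ways. Beside their counts stand the same shares of all genes, 43.6% higher and 32.6% lower in yDucts and 42.7% and 33.1% in Ducts. Of 25 tested xenobiotic and steroid sensing regulators, 8 were higher and 9 lower in yDucts, and 9 and 8 in Ducts. Nfe2l2, the oxidative stress factor NRF2, was higher by 3.60 and 3.42, and Nr0b2, a repressor that bile acids induce in liver, was lower by 3.67 and 4.48. In this list Nr0b2 was higher (0.81 ± 0.17) and the liver and gut factors Foxa1 (-1.36 ± 0.28) and Foxa3 (-1.51 ± 0.27) were lower in yDucts than in Ducts (adjusted p = 0.0204, 0.0190 and 0.00726). Of 18 tested other oxidation, reduction and hydrolysis enzymes, 8 were higher and 6 lower in yDucts, and 5 and 8 in Ducts. Ephx1, the microsomal epoxide hydrolase, was higher by 3.82 and 3.26, Cbr3, a carbonyl reductase, by 4.89 and 5.01, and Adh1, an alcohol dehydrogenase, was lower by 4.63 and 4.66. Among these enzymes 3 were higher and 0 lower in yDucts than in Ducts, where 2.15% and 0.987% of all genes were. They were the oxygenase Fmo2 (2.89 ± 0.44), the aldehyde oxidase Aox1 (at least 4.23-fold) and the monoamine oxidase Maob (2.90 ± 0.22), with adjusted p = 0.00262, 8.05e-05 and 7.31e-06. Of 13 tested transporters, 6 were higher and 4 lower in yDucts, and 7 and 4 in Ducts. Abcc4 and Abcc3, which export conjugates, were higher by 6.0 and 3.67 in yDucts and by 5.83 and 4.25 in Ducts. Of 11 tested other conjugation enzymes, 2 were higher and 3 lower in both organoids. Nat2, an arylamine acetyltransferase, was higher by 2.30 and 2.24, while Papss1, which supplies sulphate, was higher by 1.58 and 1.40 but not called after cyclic loess in either organoid or after quantile normalization in Ducts. Of 9 tested retinoid genes, 3 were higher and 4 lower in yDucts, and 2 and 3 in Ducts, with Rdh10, a retinol dehydrogenase, higher by 5.43 and 5.99.

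Markers of other cells differed between the same groups. The summed linear level of 9 stromal markers ranged over 826 to 2087 in yDucts, 101 to 116 in Ducts and 3814 to 7126 in Acini, and 3 of them were below the 30th percentile in each organoid. Most of the yDucts sum was Vim, vimentin (10.50, against 3.62 in Ducts and 8.77 in Acini). The sum of 6 endothelial markers was 63 to 75, 64 to 77 and 774 to 1239, that of 6 immune markers 143 to 192, 161 to 254 and 517 to 807, and that of 6 endocrine markers 74 to 82, 72 to 81 and 3776 to 5911 in yDucts, Ducts and Acini. For 9 hepatocyte markers it was 196 to 267, 123 to 560 and 747 to 988, with 1 marker higher and 5 lower in yDucts than in Acini. Fgb, a fibrinogen chain, was the 1 hepatocyte marker higher in yDucts than in Ducts (4.40, 2.76 and 2.92 in yDucts, Ducts and Acini). Albumin, Alb, read 4.42 in yDucts, 3.57 in Ducts and 5.76 in Acini. For 4 steroidogenic cell markers it was 67 to 69, 64 to 75 and 115 to 175. The part of these cells in the lower members was not tested, and in bulk RNA fewer cells of a type and less RNA per cell cannot be told apart.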

How the data were processed

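Levels are log2 values that the authors deposited, 1 per probe set and array, made with RMA as the submitters' processing notes name it, a method that usually corrects background, normalizes by quantiles and summarises by median polish. Neither its version nor whether all 12 arrays were run together is stated. Of 45101 probe sets, 34958 had 1 symbol in the platform annotation, 932 several and 9211 none, and only those with 1 were used. The gene's probe set was the brightest over the 12 arrays. Genes above the 30th percentile on at least 4 arrays (14991 of 18194) were tested with limma 3.58.1 (R 4.3.3) with 1 mean per group and 3 two-sided contrasts on all 12 arrays (degrees of freedom: 9 residual, 3.72 prior). P-values were adjusted by Benjamini-Hochberg within a contrast, over every gene tested. A call is an adjusted p under 0.05, and errors are SE for differences and SD for levels. Precision is limited by the number of arrays. The code was tested on simulated data. Members and lists were chosen with earlier results of these data known. Named members were the 8 largest increases and decreases per comparison, the 10 highest of each group, Cyp2d26 and every yDucts against Ducts call, and from each list up to 4 called genes. The alternatives were other scalings, filters, probe set rules, array weights, left-out arrays and the replica letter as a block. Members and list genes named beyond this rule were chosen after their values were seen. Promoters came from RefSeq (GRCm38.p6).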

Additional observations from a re-analysis of the deposited data

Results flagged for a closer look

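A single array stood far from the other 3 in 5 of 72 groups of 4 arrays examined (24 named members in 3 groups), where chance gives about 1 in 20. The gap over the whole range of the group was 0.889 for Cyp4f16 in Ducts (5.79 in B, the others 6.35 to 6.42), 0.869 for Cyp4a12a in yDucts (7.27 in B, the others 5.67 to 5.88), and 0.834 for Ugt2b5 in Ducts (4.42 in B, the others 2.85 to 3.11). In Acini it was 0.854 for Ugt2b35 (4.23 in A, the others 5.05 to 5.19) and 0.854 for Cyp7b1 (4.85 in D, the others 5.61 to 5.74).

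The differences of yDucts and Ducts from Acini were unequal, by the limma contrast between the organoids, for Cyp4b1 (3.76), Cyp2d22 (2.82), Cyp2d26 (2.62), Ugt2b5 (2.60) and Cyp2d9 (1.59, log2, yDucts minus Ducts). Of these, Cyp2d26 and Ugt2b5 were tested only because of their yDucts arrays.

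Outside the comparisons, 3 probe sets are annotated to 8 Ugt1a genes at once, which share most of their exons, and were left out because they name no single gene. Their means were 12.76, 11.72 and 11.42 in yDucts, 12.05, 11.11 and 10.62 in Ducts and 5.36, 5.53 and 4.12 in Acini. On each of the 3, every organoid array lay above every Acini array, and the Ugt1a genes behind them cannot be told apart.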

How the results depend on the processing

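With 25 alternative settings, 34 of 42 called results of named members kept their call and direction in every setting that could be run, and 0 turned direction. The 42 include those of Cyp1a1 and Cyp7b1, which were tested only through their Acini arrays. They also include those of Ugt2b5 and Cyp2d26, which were tested only because of yDucts. Members lower than Acini numbered 25 in yDucts and 29 in Ducts in the deposited scaling (49.0% and 56.9% of tested members, against 32.6% and 33.1% of all genes). In yDucts they were 15 after cyclic loess, 45 with no filter and 10 with a filter at the 50th percentile. In Ducts they were 18 after quantile normalization (35.3% against 36.1%) and 16 after cyclic loess (32.0% against 36.6%). With no filter 48 were lower (57.8% against 39.6%), and at the 50th percentile 11 (42.3% against 24.8%). The median difference of all genes against Acini was -0.16 in yDucts and -0.15 in Ducts after quantile normalization, against 0.24 and 0.21 as deposited. Outside the 24 members named by the rule, lower calls of Cyp11b1 in both organoids and of Cyp1a2 and Cyp2c29 in Ducts changed sign in a rescaling. Members higher in yDucts than in Ducts were 5 as deposited (9.8%, against 2.15% of all genes). With array weights they were 12 (23.5%, where 3150 of 14991 genes were higher and 3033 lower). With only those groups fitted they were 3 (5.88% against 2.59%). They were 10 without Ducts A and B (19.6% against 8.62%) and 2 without Ducts C and D (3.92% against 1.06%). Members lower in yDucts were 4 with array weights (7.84%, against 20.2% of all genes) and 1 without Ducts A and B (1.96% against 5.92%). As deposited they were 0 (against 0.987% of all genes). Leaving out 1 array gave 3 to 7 higher (5.88% to 13.7%, against 1.09% to 3.66% of all genes) and 0 lower (against 0.44% to 1.93%). Over all settings Cyp2d22 and Ugt2b5 were called in 25 of 25, Cyp2d26 in 23 of 24, Cyp4b1 in 20 of 25 and Cyp2d9 in 16 of 25. Beyond fewer arrays, fewer genes or another scale in the fit, the cause was not tested.

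Deviations of same-lettered arrays had correlations of -0.35 to 0.134, and the letters were not used as pairs in the main fit. Whether arrays with the same letter share an animal or preparation could not be learned. With the letter as a replicate block, 4 members were higher (7.84%) and 0 lower in yDucts than in Ducts, against 1.81% and 0.78% of all genes. Against Acini, yDucts had 12 higher and 25 lower members (23.5% and 49.0%, against 43.2% and 32.0% of all genes). Ducts had 8 higher and 26 lower (15.7% and 51.0%, against 42.1% and 32.5%). The calls of Cyp2d9 were lost with the block (adjusted p = 0.0524 in yDucts against Ducts and 0.0529 in Ducts against Acini, by limma).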
